A study of Arabidopsis thaliana with 9 samples.

Results

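The chloroplast makes part of its own proteins on ribosomes of a bacterial type, whose RNAs and some of whose proteins are encoded in the plastid genome. The remaining ribosomal proteins are encoded in the nucleus, made in the cytosol and imported, so that each plastid ribosome joins products of both genomes. The 39 nuclear genes described here encode such proteins: 25 of the large subunit (PRPL), 9 of the small subunit (PRPS) and 5 plastid-specific ribosomal proteins (PSRP), named as additions to the bacterial set. They were taken by a list of locus identifiers from a table of 32833 Arabidopsis thaliana genes. The list itself uses no measured value, but it was drawn up with earlier results of these data known. In many plants, loss of single plastid ribosomal proteins gives pale seedlings or arrests the embryo.

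RNA was sequenced from whole 6-day-old seedlings in 9 libraries, 3 in each of 3 groups. The groups were wild type (genotype Col-0) and the 2cpab mutant, whose green and albino seedlings were collected apart. All seedlings grew on MS medium with 0.5% sucrose, under light that was never switched off (125 µE per square metre and second). The mutant is named after 2CPA and 2CPB, the genes of the chloroplast 2-Cys peroxiredoxins, enzymes that reduce peroxides. The labels name neither the mutant alleles nor the basis on which seedlings were sorted as green or albino. Nothing in them shows that the replicates are separate cultures, and p-values therefore cover only the spread among these libraries, which may be technical. Levels are scaled FPKM, fragments per unit of length and depth after a scaling that gave every library the same upper quartile, and read counts and absolute depth are unknown.

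2CPA stood at 989, 763 and 889.7 scaled FPKM in wild-type replicates 1 to 3, at 35.8, 267 and 256 in the green libraries and at 24.2, 21.4 and 25.4 in the albino libraries. 2CPB had the same order, with 237, 174 and 188 in wild-type replicates, 7.21, 48.6 and 54.2 in green mutants and 1.82, 2.89 and 1.52 in albino seedlings. Green replicate 1 therefore held less RNA of both targeted genes than the other green libraries, and it stands apart in the ribosomal protein genes as well. The summed level of 4 green-tissue markers (light-harvesting proteins, the Rubisco small subunit and a carbonic anhydrase) was 25833 to 32018 in wild-type replicates, 22006 to 36272 in green mutants and 2749 to 3357 in albino seedlings. All 4 of 4 green-tissue markers were called lower in albino than in wild-type seedlings (adjusted p < 0.05 by limma), against 20.1% of all tested genes. None of them was at 0, and none was called in green seedlings, against 8.87% of all tested genes. The sum of 3 root hair markers was 39.1 to 83.8, 30.2 to 50.7 and 67.0 to 78.7 in the same order of groups, and that of 3 seed storage genes 2.45 to 11.6, 34.7 to 47.0 and 28.2 to 84.7. Of the root hair markers 1 of 3 was called higher in albino than in wild-type seedlings, against 23.4% of all tested genes. All 3 seed storage genes were called higher in both mutant groups, against 23.4% of all tested genes in albino and 3.71% in green seedlings. The part of these tissue differences in the results below was not tested. In whole seedlings, fewer green cells and less RNA per cell cannot be told apart.

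The region around the start of each gene, 250 bases before and 50 bases after the annotated start, was read from the RefSeq assembly TAIR10.1 to show what the genes share beside their product. A set of 5 is printed: PRPL34 and PSRP4 had some of the largest falls in albino seedlings, PRPL35 fell by nearly as much and holds none of the motifs searched, and PRPL29 and PRPL19-1 had the smallest falls. Capitals mark motifs on either strand. Searched were the site II elements, with the letters TGGGCC in one form and with TGGGCT in the other. The telo-box was searched as AAACCCTA, a GATA-type motif as GATAAG, the G-box as CACGTG and a GLK-type motif as CCAATC. The windows are chr1:10149541-10149840 for PRPL34, chr2:15980598-15980897 for PSRP4, chr2:10241625-10241924 for PRPL35, chr5:26060915-26061214 for PRPL29 and chr4:9779974-9780273 for PRPL19-1, all on the plus strand. Those of PRPL34, PSRP4 and PRPL29 overlap a neighbouring gene (AT1G29060, AT2G38130 and AT5G65210).
PRPL34: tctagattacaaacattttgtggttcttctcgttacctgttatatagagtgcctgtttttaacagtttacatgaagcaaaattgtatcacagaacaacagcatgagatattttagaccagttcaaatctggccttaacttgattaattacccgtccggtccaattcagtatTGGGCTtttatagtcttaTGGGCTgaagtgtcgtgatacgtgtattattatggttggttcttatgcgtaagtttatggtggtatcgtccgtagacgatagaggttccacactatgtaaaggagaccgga
PSRP4: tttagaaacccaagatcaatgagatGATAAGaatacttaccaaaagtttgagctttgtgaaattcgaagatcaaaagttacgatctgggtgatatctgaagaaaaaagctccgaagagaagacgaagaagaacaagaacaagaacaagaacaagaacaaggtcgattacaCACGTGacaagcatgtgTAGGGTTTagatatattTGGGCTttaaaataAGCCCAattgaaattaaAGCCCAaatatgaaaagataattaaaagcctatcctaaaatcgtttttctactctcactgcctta
PRPL35: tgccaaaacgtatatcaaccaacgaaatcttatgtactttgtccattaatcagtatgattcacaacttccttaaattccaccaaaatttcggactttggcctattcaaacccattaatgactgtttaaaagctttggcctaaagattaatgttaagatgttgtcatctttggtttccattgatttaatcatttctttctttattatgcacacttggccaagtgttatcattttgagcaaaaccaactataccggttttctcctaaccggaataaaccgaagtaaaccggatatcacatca
PRPL29: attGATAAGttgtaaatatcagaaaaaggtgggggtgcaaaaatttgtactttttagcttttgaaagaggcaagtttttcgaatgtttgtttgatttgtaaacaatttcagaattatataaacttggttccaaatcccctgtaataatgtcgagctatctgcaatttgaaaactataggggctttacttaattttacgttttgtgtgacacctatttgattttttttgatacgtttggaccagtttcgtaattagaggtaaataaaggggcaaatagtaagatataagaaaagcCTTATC
PRPL19-1: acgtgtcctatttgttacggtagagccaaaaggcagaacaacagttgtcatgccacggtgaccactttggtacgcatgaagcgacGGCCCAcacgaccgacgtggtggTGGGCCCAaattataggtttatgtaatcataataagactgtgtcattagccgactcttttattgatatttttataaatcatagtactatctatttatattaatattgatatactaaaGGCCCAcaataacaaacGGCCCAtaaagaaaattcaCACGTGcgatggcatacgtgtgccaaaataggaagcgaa

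GATAAG occurred in 18 of the 39 windows (46.15%), against 14.65% of all 27443 windows of protein-coding genes. Either site II form, motifs found upstream of many plant ribosomal protein and growth genes, occurred in 20 of 39 (51.28%), against 21.72% of all windows. TGGGCC alone was present in 33.33% against 15.46% and TGGGCT alone in 35.9% against 14.16%, and one stretch can hold both strands of TGGGCC, as in TGGGCCCA. The telo-box, a motif of translation genes, was found in 15.38% against 6.22%. The G-box stood at 10.26% against 7.68% and the GLK-type motif, named for the GLK factors of chloroplast development, at 12.82% against 12.35%. Over the 19034 windows of tested genes the shares were 14.84% for GATAAG, 25.57% for either site II form, 18.99% for TGGGCC and 16.56% for TGGGCT. They were 5.47% for the telo-box, 9.17% for the G-box and 12.77% for the GLK-type motif. Differences were set beside motifs for GATAAG and site II alone, with no test. The median log2 difference between albino and wild-type seedlings was -1.52 over 17 steadily measured genes with GATAAG and -1.59 over 20 without. For either site II form the medians were -1.55 over 18 genes with and -1.63 over 19 without. These are descriptions of letters in a window, and no factor's binding was measured.

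In wild-type seedlings the ribosomal protein genes formed a narrow band of high levels. Over the 37 genes with steady values (all but PRPL12B and PRPS17, described at the end) group means ran from 161 scaled FPKM for PRPL19-1 to 603 for PSRP5, a 3.76-fold span. Their summed level was 2.08% ± 0.0796 of all scaled FPKM in the wild type (SD, n = 3), 1.97% ± 0.174 in green mutants and 0.969% ± 0.0425 in albino seedlings. By library the share was 2.17%, 2.04% and 2.02% in wild-type replicates, 1.77%, 2.08% and 2.06% in green mutants and 1.02%, 0.943% and 0.947% in albino seedlings. The albino libraries lay below all others, and green replicate 1 was the lowest of the green and wild-type ones.

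**Figure D1:**
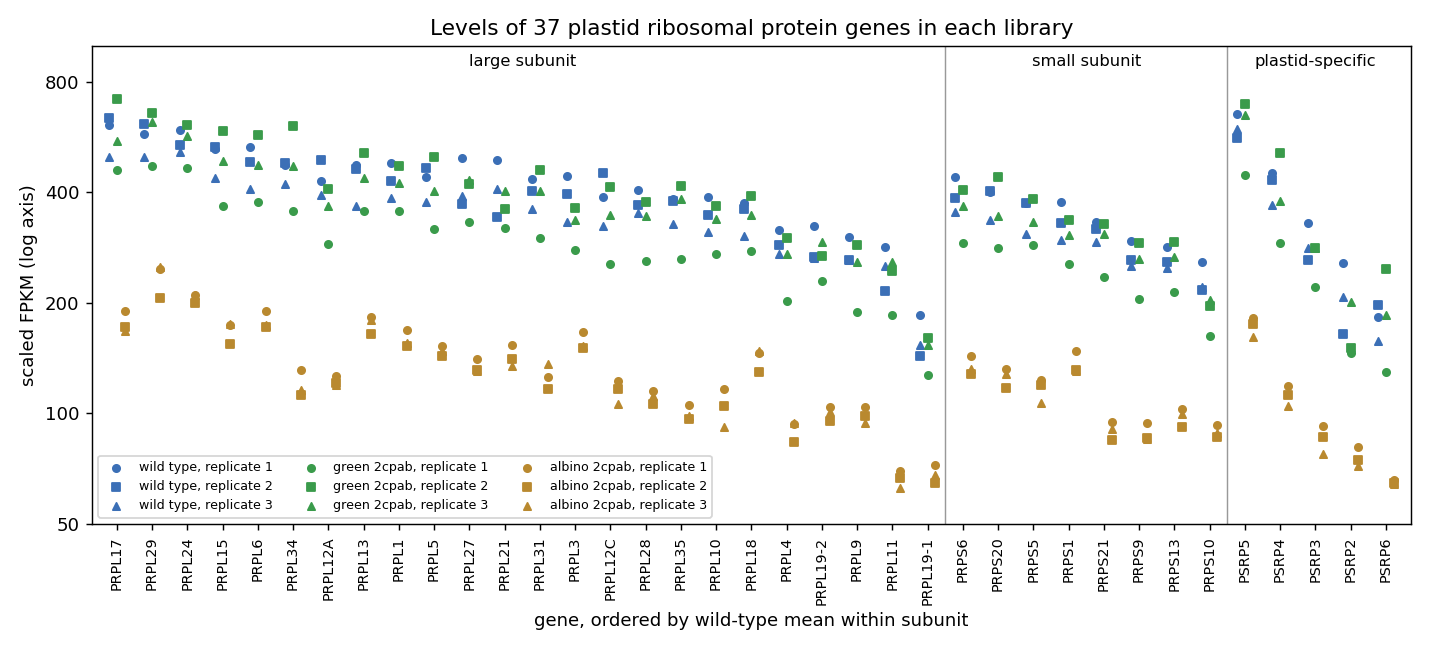
Scaled FPKM (log axis) of 37 plastid ribosomal protein genes in each of the 9 libraries, ordered by wild-type mean within the large subunit, the small subunit and the plastid-specific proteins. The albino libraries lie below every other library for all 37 genes, and green replicate 1 (green circles) lies below the other green libraries and the wild type.

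In albino seedlings nearly the whole set fell well below the wild-type level, large and small subunit alike. Of 38 genes tested, 37 were called lower and none higher than in the wild type, by limma with Benjamini-Hochberg adjustment over 19731 genes at adjusted p < 0.05, against 20.1% of all tested genes called lower (and 43.5% in either direction). The remaining gene is PRPS17. The median log2 difference, on the log2(scaled FPKM + 1) scale, was -1.55 over the 38, against 0.07 over all tested genes. Over the 37 called genes it ran from -1.93 (PRPL34) to -1.22 (PRPL19-1), and the largest adjusted p by limma was 0.000279. Albino means were 26.1% to 42.5% of the wild-type means. For all 37 the highest albino library lay below the lowest wild-type library, against 24.4% of tested genes. A fall at least as large as that of PRPL19-1 was seen in 5.9% of all tested genes.

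Scaling sets part of this size. The authors' scaling leaves the median of all tested genes at 0.07 between albino and wild-type seedlings, whereas a common sum per library (TPM) puts it at 0.50. The ribosomal protein median then reads -1.08, and its distance from the median of all genes is -1.58, against -1.62 with the deposited values. All 37 genes were called lower under each of 24 alternatives run for this comparison, with log2 differences from -1.997 to -0.72.

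Among large subunit genes, 24 of 24 tested fell in albino seedlings, with a median of -1.54. PRPL34 (AT1G29070), a small protein bound to ribosomal RNA, stood at 473, 479 and 420 scaled FPKM in the wild type, 356, 607 and 471 in green mutants and 131, 112 and 116 in albino seedlings. Its log2 difference between albino and wild type was -1.93 ± 0.18 (SE, adjusted p = 2.4e-05 by limma). The albino libraries were well below the others, and green and wild-type values overlapped.

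The stalk of the large subunit and its base, which contact translation factors, are built by L10, L11 and the L12 proteins. PRPL11 (AT1G32990) stood at 283, 215 and 252 in wild-type replicates, 185, 244 and 258 in green mutants and 69.6, 66.7 and 62.5 in albino seedlings, a log2 difference from the wild type of -1.89 ± 0.15 (SE, adjusted p = 9.94e-06 by limma). PRPL10 (AT5G13510) fell as well, from a mean of 348 ± 38.0 to 104 ± 12.2 (SD, n = 3). PRPL12A (AT3G27830) read 428, 489 and 393 in wild-type replicates, 288, 407 and 366 in green mutants and 127, 121 and 119.5 in albino seedlings, a difference of -1.82 ± 0.14 (SE, adjusted p = 1e-05 by limma). PRPL12C (AT3G27850), its tandem copy on chromosome 3, read 388, 450.2 and 324, then 255.5, 414 and 347, then 122, 116 and 106. Albino libraries lay apart in both copies, which fell together. Their coding sequences are identical at 93.09% of aligned bases with an unbroken identical run of 255 bases, so reads may be shared between them and each separate value is uncertain. PRPL12B (AT3G27840), between them, was listed at 0 in all 9 libraries and was not tested. Its coding sequence matched that of PRPL12A at 77.78% of aligned bases.

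Proteins around the peptide exit tunnel include L17, L24 and L29. PRPL17 (AT3G54210), one of the strongest members, read 610, 635 and 497 in wild-type replicates, 459, 717 and 552 in green mutants and 190, 171 and 167 in albino seedlings. PRPL29 (AT5G65220) read 574, 613 and 498, then 471, 658 and 621, then 247, 207 and 250.2. The albino values were again the lowest for both genes. The fall was -1.71 ± 0.17 for PRPL17 and -1.26 ± 0.16 for PRPL29 on the log2 scale (SE). In albino seedlings PRPL29 was thus the highest of all 37 genes in each library, whereas PSRP5 and PRPL17 led in the wild type. PRPL35 (AT2G24090), a structural protein of the large subunit, went from 383, 379 and 327 in the wild type to 105, 96.2 and 98.1 in albino seedlings, with 262, 415 and 382 in green ones, a fall of 1.85 ± 0.16 on the log2 scale.

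The protein L19, which lies at the contact between subunits, has a pair of genes here. PRPL19-1 (AT4G17560) read 185, 143 and 153 in wild-type replicates, 127, 161 and 154 in green mutants and 72.3, 64.4 and 67.9 in albino seedlings. PRPL19-2 (AT5G47190) read 324, 266 and 265, then 229, 268 and 293, then 104, 94.98 and 101. Both copies fell, by 1.22 ± 0.13 and by 1.49 ± 0.12 on the log2 scale (SE). PRPL19-2 was the more abundant copy in every library. Their coding sequences are identical at 81.93% of aligned bases, with no identical run longer than 43 bases.

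Among small subunit genes, 8 of 9 fell in albino seedlings, and the median of these 8 was -1.56. PRPS1 (AT5G30510), which in bacteria binds messenger RNA at the start of translation, stood at 376, 330.1 and 297 in wild-type replicates, 255, 335 and 306 in green mutants and 148, 131 and 131 in albino seedlings. Its log2 difference from the wild type was -1.28 ± 0.13 (SE, adjusted p = 5.24e-05 by limma), among the smaller falls. PRPS21 (AT3G27160) showed the largest fall of the small subunit, from 315 ± 20.1 to 90.2 ± 5.15 (SD, n = 3), and read 290 ± 48.7 in green seedlings. The ratio of the large subunit median to the small subunit median was 1.23 ± 0.00255 in wild-type replicates, 1.24 ± 0.0399 in green mutants and 1.23 ± 0.0477 in albino seedlings (SD, n = 3). This ratio, over 24 large and 8 small subunit genes of the nucleus, was thus alike in the 3 groups within its spread. It leaves out PRPS17, the plastid-specific genes and the genes of the plastid genome.

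All 5 plastid-specific genes fell in albino seedlings, with a median of -1.75. PSRP5 (AT3G56910), a protein of the large subunit, had the highest wild-type mean and read 653, 560.0 and 596 in wild-type replicates, 444, 696 and 650.5 in green mutants and 182, 175 and 162 in albino seedlings. PSRP4 (AT2G38140), a protein of the small subunit, read 452, 432 and 369, then 291, 511 and 379, then 119, 112 and 105. Albino libraries did not overlap the others for either gene. The falls were -1.80 ± 0.17 for PSRP5 and -1.89 ± 0.18 for PSRP4 (SE). PSRP2 (AT3G52150), an RNA-binding protein, read 256, 165 and 208 in wild-type replicates, 146, 150.4 and 201 in green mutants and 81.1, 74.5 and 72.0 in albino seedlings, again with all albino libraries lowest. PSRP6 (AT5G17870), a protein of the large subunit, had the lowest albino mean, 64.8 ± 0.854, against 179 ± 20.3 in the wild type.

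The falls resembled each other. Their SD over the 37 genes was 0.202 on the log2 scale, and the standard errors of single genes ran from 0.11 to 0.20. Differences between genes in the size of the fall were not tested. The span between the weakest and the strongest gene was 3.62-fold in albino seedlings, close to that of the wild type. Symbols or synonyms that mark an embryo-defective mutant belong to 9 of the 39 genes (23.08%), against 0.97% of 27550 protein-coding genes in the annotation. The median of these 9 was -1.43, and that of the other 28 steadily measured genes was -1.57. The genes lie on all 5 chromosomes, with 12, 5, 12, 2 and 8 on chromosomes 1 to 5.

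**Figure D2:**
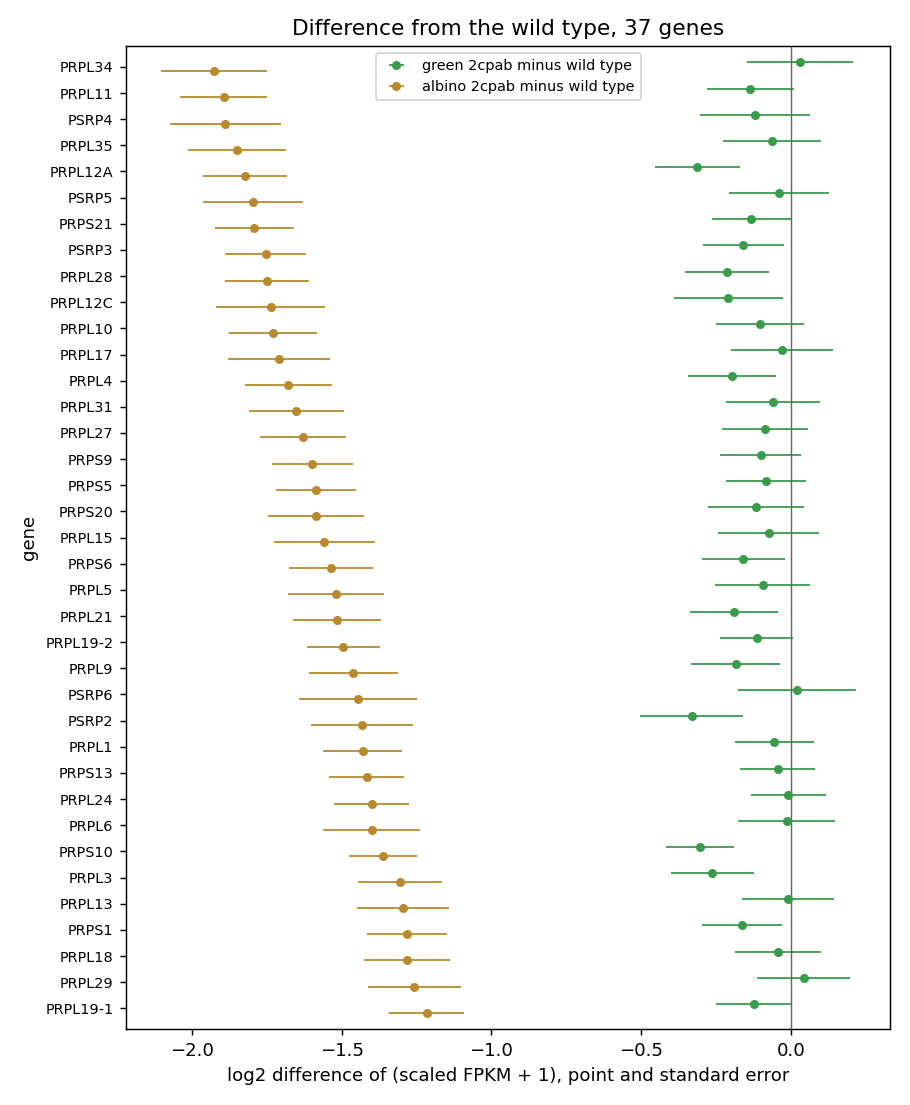
Log2 difference of (scaled FPKM + 1) from the wild type for 37 genes, with points for the limma estimate and bars for its standard error, green 2cpab in green mutants and albino 2cpab in ochre. Albino differences lie between -1.93 and -1.22, and green ones between -0.33 and 0.04.

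In green mutant seedlings no plastid ribosomal protein gene was called in either direction. Of 38 tested, 0 passed by limma, against 8.87% of all tested genes (5.16% lower and 3.71% higher). Of the 38, 1 had an unadjusted p below 0.05, against 4309 of all 19731 tested genes. The median difference from the wild type was -0.10, against 0.02 over all genes. Of the 37 steadily measured genes 34 had a value below 0 and 3 a value above 0. The lowest limit of any of their 95% confidence intervals was -0.71 and the highest limit 0.46, so that each interval lay above a 2-fold fall. PRPS10 (AT3G13120), a small subunit protein, was the gene with the unadjusted p below 0.05. It read 258, 216 and 220.4 in wild-type replicates, against 163, 196 and 204 in green seedlings, and its log2 difference was -0.30 ± 0.11 (SE, adjusted p = 0.151 by limma). It was also the only one of the 37 whose green libraries all lay below the wild-type ones, against 11.8% of tested genes. PSRP2 had the largest value of the 37, -0.33 ± 0.17 (SE, adjusted p = 0.305 by limma), and PRPL12A stood at -0.31 ± 0.14 (SE, adjusted p = 0.234). PRPL12A passed with quantile-normalized values (adjusted p = 0.0394 by limma).

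The negative values came mainly from 1 library. Green replicate 1 was the lowest green library for all 37 genes, as it was for 32.7% of all tested genes, and it lay below every wild-type library for all 37, as it did for 24.99% of tested genes. The median log2 deviation of the 37 genes from the wild-type mean was -0.40 for green replicate 1, 0.12 for green replicate 2 and -0.03 for green replicate 3. Wild-type libraries themselves deviated by 0.12, 0.00 and -0.15. In green replicate 2, 18 genes lay within the wild-type range, 17 above it and 2 below. In green replicate 3, 31 lay within it, 1 above and 5 below. Shares over all tested genes were not computed for green replicates 2 and 3. Without green replicate 1 the median difference of the 38 tested genes was 0.03, against -0.40 when green seedlings were represented by that library alone, and without it no gene was called lower. As given above, RNA of the targeted genes was also lowest in this green library, and the part of that in its ribosomal protein levels was not tested. Even so, green replicate 1 lay above the highest albino library for all 37 genes. Among all tested genes, 23.8% had every green library above every albino one. The share for green replicate 1 alone was not computed.

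Between the mutant groups the ribosomal protein genes differed about as much as between albino and wild-type seedlings. In albino against green seedlings 37 of 38 were called lower by limma, against 17.7% of all tested genes (36.1% in either direction), with a median of -1.47. The falls ran from -1.96 (PRPL34) to -1.04 (PRPL3, AT2G43030), and the largest adjusted p by limma was 0.000875. All albino libraries lay below all green libraries for the 37 genes, against 23.8% of tested genes, and 6.35% of tested genes fell at least as much as PRPL3. The largest falls after PRPL34 were those of PRPL35 (-1.79 ± 0.16), PSRP4 (-1.77 ± 0.18), PRPL11 (-1.76 ± 0.15), PSRP5 (-1.76 ± 0.17) and PRPL17 (-1.68 ± 0.17). Against green replicate 1 alone, the lowest of the green libraries, the median was -1.16. All 3 root hair markers were called higher in albino than in green seedlings too (log2 differences of 0.75 to 0.91), against 18.5% of all tested genes. None of the 3 seed storage genes was called, against 36.1% in either direction. The part of the root hair markers in this comparison was not tested. The groups share their genotype label, and residual RNA of the targeted genes and pigmentation differ together between them and cannot be told apart here.

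**Figure D3:**
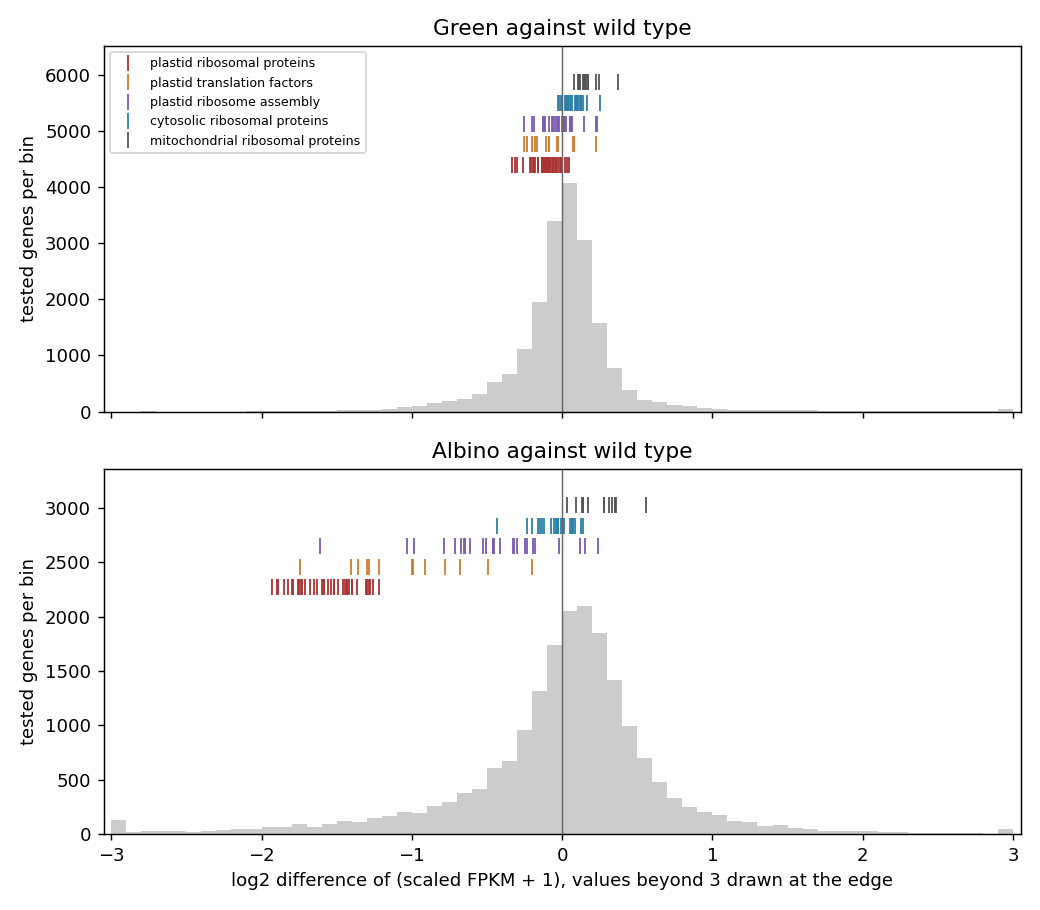
Log2 difference of (scaled FPKM + 1) from the wild type for all 19731 tested genes (grey histogram, number of genes per bin) and for 37 plastid ribosomal protein genes and 4 other lists (ticks), in green seedlings (top) and albino seedlings (bottom). In albino seedlings the plastid ribosomal protein genes lie left of -1.2, while cytosolic and mitochondrial ribosomal protein genes lie between -0.44 and 0.56 on the deposited scaling (with TPM most of them are called higher, as are 60.3% of all tested genes).

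Other genes of plastid translation were lower in albino seedlings too, though by less in the median. Of 14 listed translation factors 13 were tested, all but the elongation factor EF-Tu, which is described at the end. Of the 13, 12 were called lower than in the wild type, against 20.1% of all tested genes. None was called higher, and the median was -1.001. The list is given on the deposited scaling only, which leaves the median of all tested genes at 0.07, against 0.50 with TPM. SCO1, the plastid elongation factor G, read 240.04, 218 and 186 in wild-type replicates, 162, 267 and 209.5 in green mutants and 71.2, 59.6 and 58.8 in albino seedlings, a difference of -1.75 ± 0.18 (SE, adjusted p = 4.59e-05 by limma). FUG1, the initiation factor of the IF2 type, fell by 1.36 ± 0.15 and RRF, the ribosome recycling factor, by 1.40 ± 0.12 on the log2 scale. All 13 were called lower in albino than in green seedlings, against 17.7% of all tested genes, with a median of -0.88. None was called between green and wild-type seedlings, against 8.87% of all tested genes. In that comparison none had an unadjusted p below 0.05, against 4309 of all 19731 tested genes.

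Of 26 genes for the assembly of plastid ribosomes and the processing of their RNA, 16 were called lower in albino than in wild-type seedlings. The share over all tested genes was 20.1%. None was called higher, and the median was -0.46. The largest falls were those of AT3G23700 (-1.61 ± 0.14), AT4G34730 (-1.03 ± 0.14) and AT1G12800 (-0.99 ± 0.12). The calls in this list depend on the scaling. With TPM 4 were called lower and 4 higher, against 10.2% and 60.3% of all tested genes. The median of the list was then -0.00 against 0.50 over all tested genes, and -0.46 against 0.07 with the deposited values. In albino against green seedlings 18 were called lower, against 17.7% of all tested genes, with a median of -0.42. AT5G24490, one of 2 further genes of plastid-specific ribosomal proteins outside the list of 39, fell by 1.02 ± 0.15 from the wild type, while PSRP3/2 (AT5G15760), expressed at about 6 scaled FPKM, stood at -0.00 ± 0.14.

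Ribosomal proteins of the other compartments did not share the fall. Of 23 cytosolic ribosomal protein genes 1, RPL16A, was called lower in albino than in wild-type seedlings, against 20.1% of all tested genes. None was called higher, against 23.4% of all tested genes, and the median was -0.03. With TPM 20 of the 23 were called higher, with a median of 0.44, below the 0.50 of all tested genes, and RPL16A was no longer called (-0.03, adjusted p = 0.805 by limma with the scaling undone, and 0.019, adjusted p = 0.895 with TPM). Of 14 mitochondrial ribosomal protein genes 7 were called higher, against 23.4% of all tested genes, and none lower, with a median of 0.28, and with TPM all 14 were called higher, as were 60.3% of all tested genes. The 7 became 2 without wild-type replicate 1 or without albino replicate 1, and 3 without albino replicate 2. The largest mitochondrial rise was that of AT5G09770, from 43.2 ± 5.33 to 63.8 ± 1.09 (SD, n = 3), a difference of 0.56 ± 0.10 (SE, adjusted p = 0.00153 by limma). In green against wild-type seedlings no cytosolic gene was called by limma, against 8.87% of all tested genes. Of the 23, 1 had an unadjusted p below 0.05, against 4309 of all 19731 tested genes. There 1 of 14 mitochondrial genes was called higher, against 3.71% of all tested genes. It was AT5G64650, at 0.38 ± 0.09 (SE, adjusted p = 0.0332 by limma). That call was lost when any library other than albino replicate 3 or green replicate 1 was left out (adjusted p = 0.0541 to 0.0936).

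Among regulators of chloroplast genes, GLK1 and GLK2, transcription factors that promote photosynthesis genes, were lower in albino than in wild-type seedlings, with log2 differences of -1.76 ± 0.21 and -1.22 ± 0.21 (SE, adjusted p = 0.000127 and 0.00122 by limma). GUN1, a plastid protein of retrograde signalling, stood at -0.21 ± 0.09 (SE, adjusted p = 0.0756) and HY5, a light-response factor, at 0.41 ± 0.16 (SE, adjusted p = 0.066). None of the 4 was called in green seedlings, against 8.87% of all tested genes. There none had an unadjusted p below 0.05, against 4309 of all 19731 tested genes. With TPM, where 60.3% of all tested genes were called higher and their median was 0.50, GUN1 stood at 0.25 and HY5 at 0.87 in albino against wild-type seedlings, and both were called higher. GUN1 was thus below the median of all genes on both scalings.

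Only 3 ribosomal protein genes of the plastid genome could be named from the annotation, and the values of these 3 went the other way. They were called higher in albino than in wild-type seedlings, as were 23.4% of all tested genes. ATCG00660, which encodes L20, read 1.33, 1.551 and 1.598 in wild-type replicates, 5.61, 1.26 and 3.77 in green mutants and 29.5, 31.2 and 25.2 in albino seedlings. ATCG01310, which encodes L2 and lies in the inverted repeat so that reads of its copies are shared, rose from 9.74 ± 2.69 to 21.1 ± 3.21 (SD, n = 3). The log2 differences between albino and wild type were 3.57 ± 0.31 and 1.06 ± 0.17 (SE, adjusted p = 1.89e-05 and 0.000677 by limma). ATCG00750, which encodes S11 and had a wild-type mean of 3.19, stood at 0.72 ± 0.23 (SE, adjusted p = 0.0304 by limma). That call was lost with no filter (adjusted p = 0.056 by limma). It was also lost when wild-type replicate 1 or 2 or any albino replicate was left out (adjusted p = 0.051 to 0.106). Libraries were made from poly(A) RNA, which captures plastid transcripts poorly.

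PRPS17 (AT1G79850), a small subunit protein that binds ribosomal RNA, was the exception in the list, and its entry in the table cannot be read alone. It was listed at 0, 0 and 40.7 in wild-type libraries, at 272, 0 and 0 in green mutants and at 247, 106 and 103 in albino seedlings. The albino values lay above the wild-type ones, as for 31.5% of tested genes, but the log2 difference of 5.34 ± 2.10 was not called (SE, adjusted p = 0.0646 by limma). The gene lies on the minus strand of chromosome 1 from 30041243 to 30041952 as a single exon, and 93.9% of it is covered by AT1G09927, a long non-coding RNA entry on the opposite strand from 30041286 to 30041963. That entry stood at 823, 925 and 695 in wild-type libraries, at 285, 1020 and 753 in green mutants and at 0, 111 and 108 in albino seedlings.

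The sum of both entries was 823, 925 and 736 in wild-type replicates, 558, 1020 and 753 in green mutants and 247, 217 and 211 in albino seedlings. As a sum the log2 difference was -1.87 ± 0.20 between albino and wild type (SE, adjusted p = 6.84e-05 by limma), within the range of the other 37 genes, and -0.13 ± 0.20 between green and wild type (adjusted p = 0.781). This sum was made after the values were seen. The library kit keeps strand, but whether the counting used it is not given in the sources used here, so reads of the gene and of its antisense entry cannot be told apart. The plastid elongation factor EF-Tu (AT4G20360) showed a similar pattern. It was listed at 0 in all libraries but wild-type replicate 3, where it was at 26.1, and was not tested. Of its length 89.7% is covered by the antisense entry AT4G20362, which averaged 699, 591 and 172 in wild-type, green and albino libraries. Summed with that entry, its log2 difference from the wild type was -2.03 in albino and -0.27 in green seedlings, with no test. Over all 32833 genes, 7 were at 0 in one library and at 50 or more in another.

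**Figure D4:**
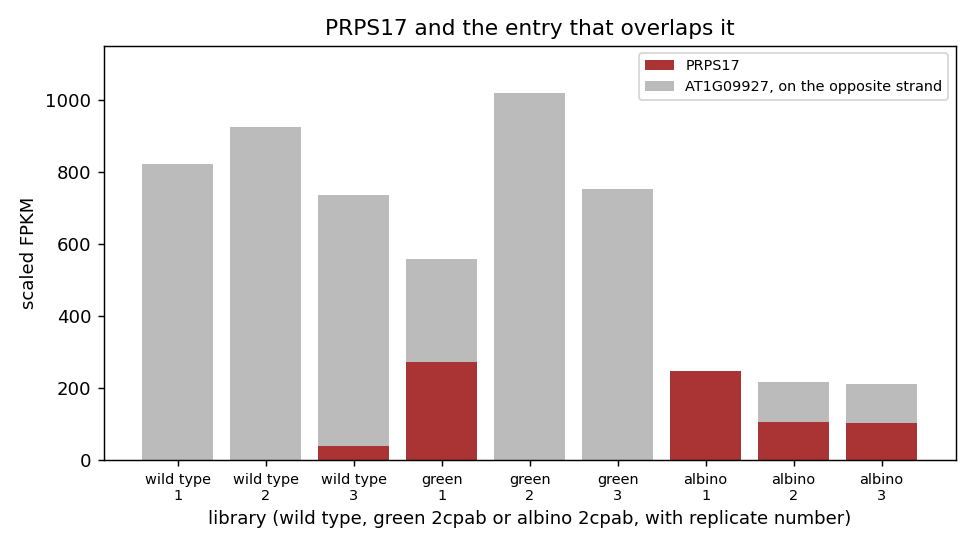
Scaled FPKM of PRPS17 (red) and of the opposite-strand entry AT1G09927 that covers 93.9% of it (grey), stacked for each of the 9 libraries. The division between both entries changes from library to library, while their sum is 736 to 925 in the wild type and 211 to 247 in albino seedlings.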

How the data were processed

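Poly(A) RNA of 9 libraries was measured. Per the submitters' processing notes, FastQC, HISAT2 and StringTie were used with the TAIR10 genome, and versions are not given in the sources used here. The authors deposited log2 values. From the values, these are log2(FPKM times a library factor + 1) with a common upper quartile. The factor was 1.05 ± 0.0528 for the wild type, 1.04 ± 0.0848 for green seedlings and 0.787 ± 0.00551 for albino seedlings (SD, n = 3), so albino values are scaled down relative to the others. Fold changes on this scale understate changes of weakly expressed genes.

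Genes at 1 scaled FPKM or more in at least 3 libraries were tested (19731) with limma 3.58.1 in R 4.3.3, fitting group means to all 9 libraries with trended, moderated variances, and Benjamini-Hochberg adjustment over all tested genes within each comparison. The code was tested on simulated data. Promoter windows and gene names came from RefSeq TAIR10.1, which matched 32548 genes. Python 3.11.15, numpy 2.4.6, pandas 2.3.3 and matplotlib 3.10.9 were used.

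The members and the lists were chosen with earlier results of these data known, so lists are described by counts and medians, with no test. Values per library are given for the targeted genes, the 6 genes with the largest called differences in each comparison (the 3 largest where fewer than 3 are called), the 3 highest and 2 lowest genes by wild-type mean, PRPS1 and the L12 and L19 copies. Genes of other lists were chosen by size of their called difference from the wild type, and not every called gene is named. GUN1, HY5 and PSRP3/2 are named though not called on the deposited scaling, and EF-Tu though not tested. Lists without calls are given as counts. PRPS10, PRPL10, PRPS21, PSRP6 and the antisense entries were named after their values were seen. AT3G17465 was left out of the mitochondrial list because it is annotated as plastid. Alternatives used a pseudocount of 0.1 or 5, no filter or one at 5 scaled FPKM, and changed the scaling, the libraries, the variance model, a replicate block and a 2-fold requirement. Other ribosomal protein genes of the plastid genome were not analysed here.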

Additional observations from a re-analysis of the deposited data

How the results depend on the processing

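All 37 steadily measured genes kept their fall in both albino comparisons under each of the 24 alternatives, with adjusted p up to 0.00173 against the wild type and up to 0.0325 against green seedlings by limma. The size moved with the scaling. The median over tested members in albino against wild-type and albino against green seedlings was -1.08 and -1.02 with TPM, -1.07 and -1.02 with a common sum without organelle genes, -1.13 and -1.08 with the scaling undone, and -1.16 and -1.06 with quantile normalization. For quantile normalization the median of all genes barely moved (0.07 against the wild type), and the cause was not tested. When green replicate 1 alone stood for green seedlings the median was -0.40 against the wild type and -1.16 in albino against green seedlings. In that fit the spread comes from the wild-type and albino libraries, the lone library is assumed to vary like them, and its calls are a weak check. Leaving out single libraries gave medians of -0.20 to 0.03 in green against wild type, -1.63 to -1.50 in albino against wild type and -1.62 to -1.33 in albino against green seedlings. With quantile normalization 1 gene, PRPL12A, was called lower in green seedlings.

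PRPS17 alone was called higher in albino than in wild-type seedlings (1 gene instead of 0) with TPM, without organelle genes, with the scaling undone, with only the 6 libraries compared and when green replicate 1 alone stood for green seedlings. Leaving out single libraries gave 0 to 1 genes called higher in both albino comparisons. Leaving out single libraries moved its difference between green and wild type from -1.79 to 2.70. Its sign turned to -1.79 in green against wild type without green replicate 1 and to -0.96 in albino against green seedlings with only green replicate 1. Summed with AT1G09927, it stood at -0.13, -1.87 and -1.74 in the 3 comparisons. RPL16A turned to 0.019 with TPM and 0.026 without organelle genes in albino against wild-type seedlings.

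Whether replicate numbers pair the libraries was not settled. Deviations of same-numbered wild-type and green libraries from their group means correlated at -0.08, 0.28 and 0.27 over 19731 genes. Wild-type replicate 2 with green replicate 3 stood at -0.355, and wild-type replicate 3 with green replicate 2 at -0.27. Same-numbered wild-type and albino libraries correlated at 0.13, 0.05 and -0.02, and same-numbered green and albino libraries at 0.04, -0.15 and 0.08. With a replicate block the counts of called members stayed at 0 lower in green mutants and 37 lower in both albino comparisons. Read counts were not used, so precision rests on 3 libraries per group.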
